A study of Homo sapiens with 12 samples.

Results

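The genes described here encode the subunits of the oxidative phosphorylation system. They were taken by name from the array annotation, as every gene whose symbol begins with NDUFA, NDUFB, NDUFC, NDUFS, NDUFV, UQCR, COX4 to COX8 or ATP5, together with SDHA, SDHB, SDHC, SDHD and CYC1. This rule found 98 genes with 124 probes among the 25992 gene names of the array. Of these, 84 were counted by name as subunits of complexes I to V, and 7 are NDUFAF genes, whose products assemble complex I. The remaining 7 are other names (ATP5S, ATP5SL, ATP5L2, NDUFA6-AS1, NDUFB2-AS1, NDUFAF4P1 and UQCRBP1). A name need not give the complex: NDUFA4 and NDUFA4L2, now COXFA4 and COXFA4L2, were counted under complex I. The rule uses names and no measured value.

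RNA came from HK-2 cells, a human proximal tubular cell (HPTC) line immortalized with papillomavirus genes, and from RPTEC/TERT1 cells, an HPTC line immortalized with telomerase. Both lines were kept without serum and supplements for 24 h, received fresh medium, and were then exposed for 24 h to IL-1β (10 ng/mL), to the SGLT2 inhibitor empagliflozin (Empa, 500 nM) or to no ligand (control). No array held RNA of cells given both agents. Each line and treatment had 2 arrays, described as biological duplicates, so 12 arrays were available. They lie on 4 slides, and each slide holds the control, IL-1β and Empa arrays of 1 line and 1 replicate number.

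Complexes I to IV pass electrons from NADH and succinate to oxygen, and complexes I, III and IV use that energy to pump protons out of the mitochondrial matrix. Complex V, the ATP synthase, lets the protons back in and makes ATP. The proximal tubule relies on this system for the ATP that drives its reabsorption, and most subunits are encoded in the nucleus, with a small set left in mitochondrial DNA.

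Nuclear genes of this system are known as targets of the factors NRF1, GABPA and YY1, and their promoters were searched first because such sites are something the genes could share beyond their names. RefSeq windows of GRCh38.p14, from 250 bases before to 50 bases after a gene's start, were found for 78 of the 98 genes on the chromosome of their probe, 63 by current symbol and 15 by an older one. Both strands were searched for the palindromic NRF1 site, for CCGGAAGT (ETS factors such as GABPA), AAGATGGC (YY1) and ACGTGC (the hypoxia response element), and for a pair of κB sites of NF-κB. None of these motifs contains another. The NRF1 letters stood in 5 of the 78 windows (6.41%, against 1.36% of 27305 RefSeq windows), the ETS letters in 9 (11.5%, against 4.44%) and the YY1 letters in 12 (15.4%, against 3.03%). The windows of NDUFA6 and NDUFA6-AS1 overlap on opposite strands and each has 1 YY1 match, so these 2 are not separate. Among the subunits alone the YY1 letters stood in 11 of 69 windows (15.9%). The hypoxia letters stood in 7 (8.97%, against 6.87%) and the NF-κB letters in 0 (against 0.355%). A match is a description of letters and not of binding, and the median GC content of the windows was 60.5% for these genes and 58.3% for all. The 3 windows below are those of the measured subunits with the most kinds, and then the most copies, of the NRF1, ETS and YY1 letters, which are in capitals. SDHD has letters of 2 kinds and COX5B 2 copies, while ATP5C1 is the first by symbol of several genes with 1 copy. SDHD, which encodes a membrane anchor of complex II, lies on the plus strand at chr11:112086623-112086922 and has the NRF1 letters 110 and the reversed ETS letters 78 bases before its start. COX5B, a nuclear subunit of complex IV (plus strand, chr2:97645812-97646111), has the ETS letters 37 and 5 bases before its start. ATP5C1, the γ subunit of complex V (now ATP5F1C, plus strand, chr10:7787927-7788226), has the NRF1 letters 22 bases before its start.
SDHD: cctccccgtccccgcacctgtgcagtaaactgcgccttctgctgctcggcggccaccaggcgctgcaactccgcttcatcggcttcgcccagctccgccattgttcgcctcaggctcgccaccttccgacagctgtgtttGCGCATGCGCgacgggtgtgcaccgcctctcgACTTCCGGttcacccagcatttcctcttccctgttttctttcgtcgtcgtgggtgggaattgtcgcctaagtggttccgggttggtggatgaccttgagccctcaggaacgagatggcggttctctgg
COX5B: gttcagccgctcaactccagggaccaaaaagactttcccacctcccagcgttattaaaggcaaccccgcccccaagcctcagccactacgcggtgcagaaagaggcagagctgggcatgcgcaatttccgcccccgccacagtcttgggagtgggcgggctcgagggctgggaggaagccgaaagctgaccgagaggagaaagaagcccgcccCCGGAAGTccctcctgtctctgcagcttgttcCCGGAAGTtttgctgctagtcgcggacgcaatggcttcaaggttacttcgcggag
ATP5C1: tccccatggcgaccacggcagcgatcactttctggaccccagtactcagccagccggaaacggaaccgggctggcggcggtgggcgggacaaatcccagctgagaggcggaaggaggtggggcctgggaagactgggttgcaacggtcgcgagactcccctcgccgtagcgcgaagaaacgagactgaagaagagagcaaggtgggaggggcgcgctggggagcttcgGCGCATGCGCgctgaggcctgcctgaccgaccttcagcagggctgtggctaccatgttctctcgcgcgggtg

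Values are log2 levels relative to the 75th percentile of an array, so a level of 0 is the signal of that percentile, and a difference of 1 is 2-fold. A few facts of the whole array set bear on what follows. The 75th percentiles lay between 298 and 765 signal units, and 6 of 7 genes known to respond to IL-1 were called higher with IL-1β in limma. Of 12 proximal tubule markers, every array detected 7 well above background, and no array CUBN or HNF4A. Relative to the 75th percentile, their summed signal on the control arrays was 6.46 to 17.2. It was 0.0455 to 31.9 for distal tubule and collecting duct markers, of which 5 were well above background on no array. Fibroblast markers summed to 0.167 to 9.77, and endothelial and leukocyte markers to at most 0.257 and 0.484. The slides did not pair by line: over 12612 genes the slide labelled HK-2 replicate 1 correlated with RPTEC/TERT1 replicate 2 at r = 0.984 and HK-2 replicate 2 with RPTEC/TERT1 replicate 1 at r = 0.973, but replicates of 1 label at r = 0.875 (HK-2) and 0.870 (RPTEC/TERT1). The sample titles name both lines, whereas the source field of all 12 samples names HK-2. Statements on a line are therefore statements on arrays titled so, and each treated array was set against the control array of its own slide. The Empa array of HK-2 replicate 1 also stood apart from the other Empa arrays, as described below with its values, and some results are also given without it.

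Of the 98 genes, 83 were tested, 70 of them subunits. They comprised 31 of 39 complex I genes, 4 of 4 for complex II, 9 of 9 for complex III, 12 of 17 for complex IV, 14 of 15 for complex V, all 7 assembly factors and 6 of the 7 other names. A group of 10 subunits (ATP5G3, COX6A1, COX6C, NDUFA4, NDUFA7, NDUFA8, NDUFB2, NDUFB3, NDUFB4 and NDUFC1) was not tested because an outlier spot was marked on 1 or more arrays, although all were well above background on 12 arrays. COX4I2, COX7A1, COX7B2, NDUFA4L2 and UQCRBP1 were not well above background on both arrays of any group. Among the tested genes, 81 of 83 stood well above background on each of the 12 arrays. The exceptions were COX8C (5 arrays) and NDUFAF4P1 (10 arrays). The median level of the 83 was 3.60, against -0.67 over all 15717 genes tested, and their probes had the same median GC content as all probes (43.3%). ATP5E, the ε subunit of complex V, was saturated on 3 arrays, and its level lay between 6.27 and 7.53.

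On the control arrays the levels followed the pairs of slides and not the labelled lines. The median absolute difference over the 83 genes was 0.18 for the pair of HK-2 replicate 1 with RPTEC/TERT1 replicate 2, and 0.24 for the pair of HK-2 replicate 2 with RPTEC/TERT1 replicate 1. For the other 4 pairs of control arrays it lay between 0.66 and 0.86. Over all genes the same measure was 0.24 and 0.31 for the first 2 pairs and 0.64 to 0.72 for the others. The gene's own range over the 4 control arrays exceeded 1 in 38 of the 83 genes (45.8%), against 53.0% of all genes. SDHA, the flavoprotein of complex II that oxidizes succinate, had control levels of 5.24 (HK-2 replicate 1), 3.14 (HK-2 replicate 2), 4.08 (RPTEC/TERT1 replicate 1) and 4.73 (RPTEC/TERT1 replicate 2), a range of 2.10. SDHB, its iron-sulfur partner, had 2.75, 2.60, 2.56 and 2.74 on the same arrays, a range of 0.19. The 4 control arrays thus agreed closely in SDHB and spread widely in SDHA, where HK-2 replicate 2 was the lowest.

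**Figure D1:**
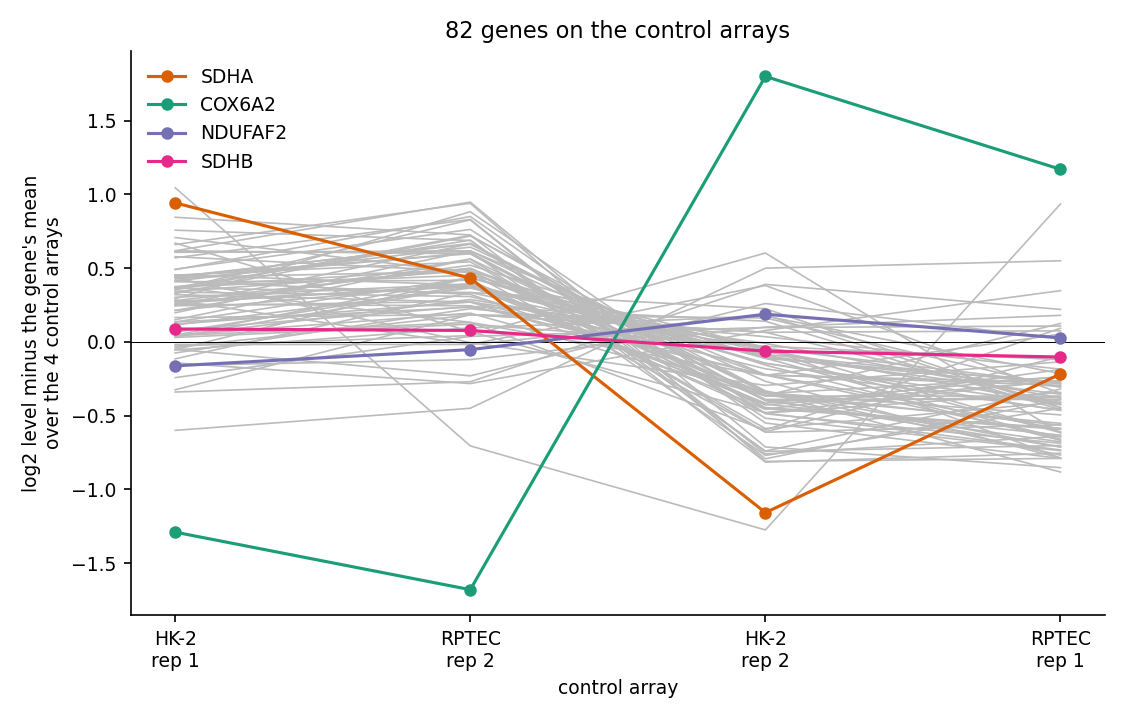
Log2 levels of 82 tested genes (all but COX8C) on the 4 control arrays, each minus the gene's mean over them; the x axis places the resembling slides side by side, grey lines are single genes and 4 genes are coloured. Most lines run level across the first resembling pair (median absolute difference 0.18) and step between these and the other 2 arrays; COX6A2 steps the opposite way.

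The comparison of IL-1β with control asked whether the pro-inflammatory ligand changed the RNA of these genes after 24 h. It called 2 of the 83 genes, NDUFAF2 (higher) and NDUFA6-AS1 (lower), and none of the 70 subunits, at an adjusted p under 0.05 (limma with the slide as a block, Benjamini-Hochberg over 15717 genes). Over all genes 1955 were called (12.4%), with 4.52% higher and 7.91% lower. At an unadjusted p under 0.05 there were 13 of the 83, against 28.2% of all genes. The median difference was -0.08 for the 83 genes and -0.11 for all, and the median absolute difference was 0.18 and 0.31. The 95% interval lay within 2-fold in 72 of the 83 genes and in 62 of the 70 subunits, against 63.7% of all genes, so for these 62 subunits a 2-fold change was outside the interval. Among the 1917 genes at least as bright as the lower quartile of these genes, 7.51% were called, and 0 of the 62 that belong to this system.

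The count of calls depended on the setting. The authors' own normalized table, with the same block, gave 10 calls in the 83 genes (12%, against 12.3% of all genes), 9 of them lower and 8 of them subunits of complexes I, IV and V. A background correction by normexp with quantile normalization gave 8 (9.64%, against 12.2%), and a fit without the block 0 (against 0.0509%). NDUFB10, NDUFA3, NDUFB1, COX6B1 and NDUFA12 were lower in both of these tables, and in the main fit their adjusted p lay between 0.0849 and 0.116 with differences from -0.48 to -0.39. The other probe of NDUFA12, nearly as bright (mean level 3.28 against 3.39), differed by only -0.17 and was higher on HK-2 replicate 2 (0.26). The tested probes of NDUFB10, NDUFA3, COX6B1, NDUFA12 and NDUFB1 had 50%, 55%, 55%, 45% and 43.3% GC. Over the 83 genes the IL-1β difference correlated with probe GC content at r = -0.25 and -0.46 on HK-2 replicates 1 and 2. On RPTEC/TERT1 replicates 1 and 2 it was -0.05 and -0.15. Over all genes these correlations were -0.03, -0.33, -0.03 and 0.09 in the same order. The part of GC content in the lower values was not tested. Leaving out the Empa array of HK-2 replicate 1 gave 8 calls (against 18.9% of all genes), namely NDUFAF2, NDUFAB1 and NDUFB8 higher and NDUFA6-AS1, NDUFB1, NDUFA3, NDUFB10 and COX6A2 lower. Leaving out the control of HK-2 replicate 1 left 1 call, and leaving out the HK-2 replicate 1 IL-1β array, the HK-2 replicate 2 control, the RPTEC/TERT1 replicate 2 control or the RPTEC/TERT1 replicate 2 IL-1β array left 0.

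By complex, the differences with IL-1β were small in each. In complex I the median was -0.13, with a range from -0.54 (NDUFB9) to 0.54 (NDUFV2), and 11 of 31 genes were lower and 3 higher on all 4 slides, against 24.9% and 15% of all genes. Over all 83 genes 28 had one sign on all 4 slides, against 39.9%. In complex II SDHD differed by -0.18, SDHC by -0.04 and SDHA by 0.18, but the 3 dimmer SDHA probes gave -0.29, -0.18 and -0.18. In complex III the 9 genes lay between -0.29 and 0.08, and in complex V the 14 genes between -0.39 (ATP5A1, the α subunit) and 0.27. The choice of probe limits such values: of 13 genes with several usable probes, the probes shared a sign in 9 with IL-1β and in 6 with Empa. In complex IV the median of 12 genes was -0.08. Its highest fitted value, 1.76 for COX8C, rests on an array floor on 3 arrays and has no measured size. The 95% intervals of all 9 complex III genes, all 4 complex II genes and 13 of the 14 complex V genes lay within 2-fold. The 7 assembly factors had a median of 0.13.

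**Figure D2:**
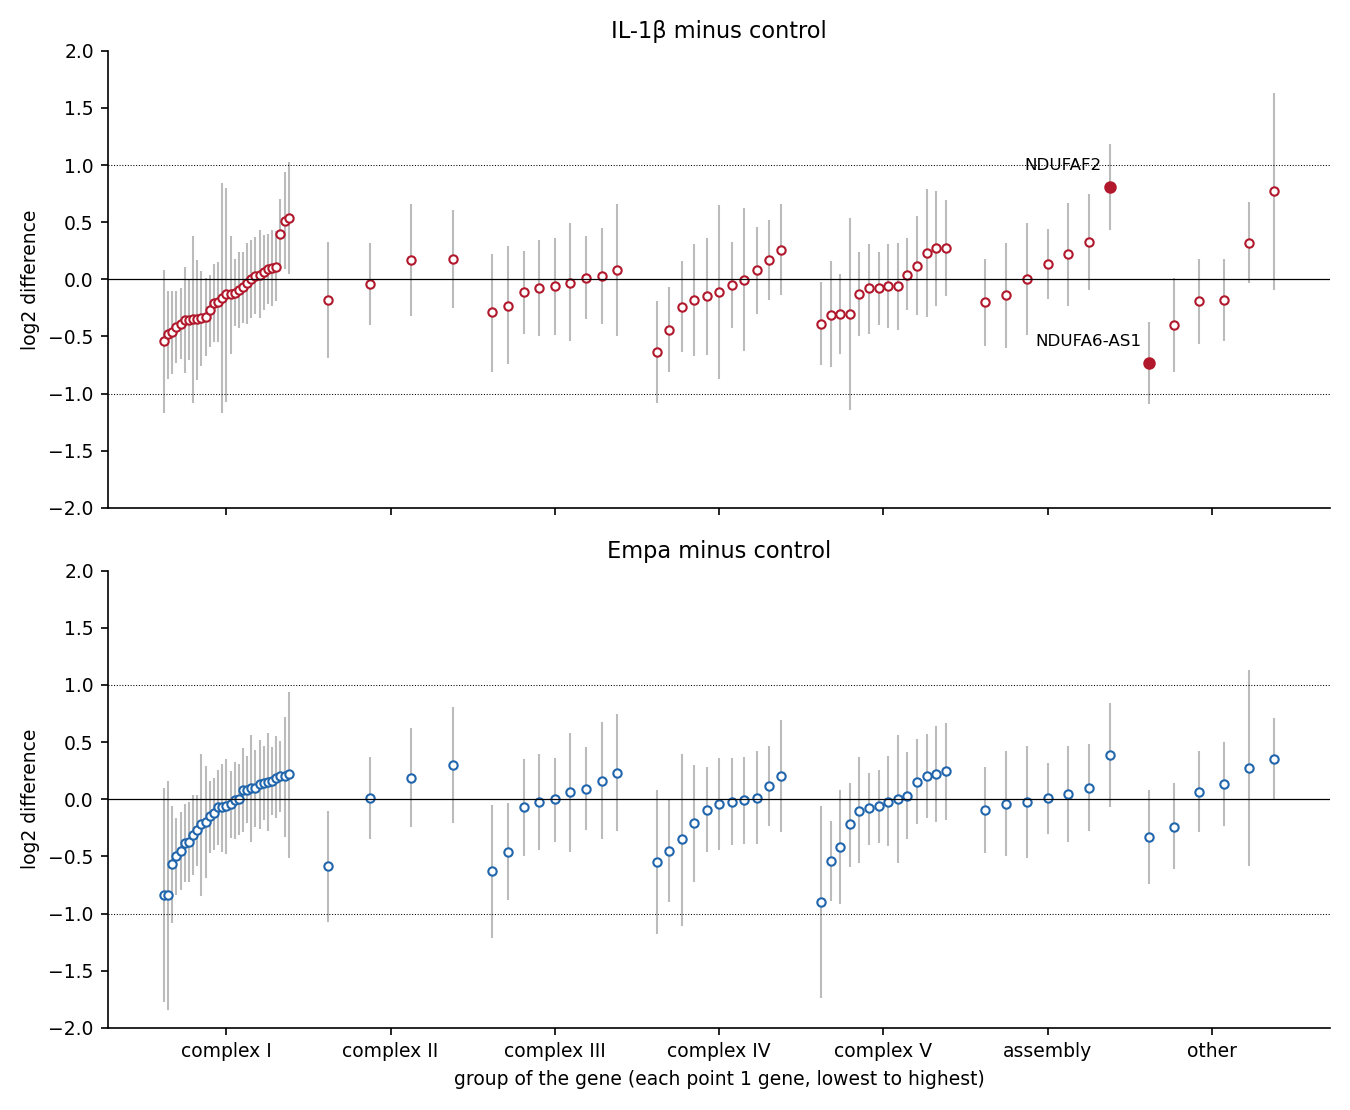
Fitted log2 differences of 82 tested genes (all but COX8C) with IL-1β (top) and Empa (bottom) from limma, grouped by complex and ordered within a group; each point is 1 gene, bars are 95% intervals, filled points have an adjusted p under 0.05 and dotted lines mark 2-fold. NDUFAF2 and NDUFA6-AS1 are the filled points with IL-1β, and there is none with Empa.

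NDUFAF2 encodes an assembly factor that joins complex I while it is being built and is absent from the finished enzyme. Its probe lies in NDUFAF2 on chromosome 5 and spans positions 60241158 to 60368959 of hg19. Its level on the control arrays was 0.67 (HK-2 replicate 1), 1.02 (HK-2 replicate 2), 0.86 (RPTEC/TERT1 replicate 1) and 0.78 (RPTEC/TERT1 replicate 2). With IL-1β it was 1.44, 1.87, 1.27 and 1.98 in the same order. All 4 IL-1β arrays lay above all 4 control arrays, the lowest at 1.27 and the highest control at 1.02. The fitted difference was 0.81 (standard error 0.17, 1.75-fold, 95% interval 1.35 to 2.27, adjusted p = 0.0162 by limma), and the within-slide differences were 0.77, 0.85, 0.41 and 1.20. The call held in 14 of 15 limma alternatives that used all arrays, the exception being the fit without the slide block (adjusted p = 0.541). It was also lost in an unpaired t-test of the 4 IL-1β against the 4 control arrays, which ignores the slides (adjusted p = 0.146). The study names unpaired t-tests for its PCR and ELISA data and states no test for the arrays. It was lost without the HK-2 replicate 1 IL-1β array (adjusted p = 0.0530), the HK-2 replicate 2 control (0.0538), the RPTEC/TERT1 replicate 2 control (0.0641) or the RPTEC/TERT1 replicate 2 IL-1β array (0.0697), where the difference lay between 0.67 and 0.79, and without the slide HK-2 replicate 2 (0.0849) or RPTEC/TERT1 replicate 2 (0.129). The other 6 assembly factors lay between -0.20 (NDUFAF1) and 0.33 (NDUFAF4), and none of them was called.

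NDUFA6-AS1 is a non-coding RNA named for its place beside NDUFA6, a complex I subunit, and encodes no subunit itself. It has 2 probes of 60 bases on the plus strand of chromosome 22 of hg19, the brighter at chr22:42520486-42520545 and the other at chr22:42520497-42520556. They are shown because the 2 measurements of this RNA share most of their letters: the 49 shared bases are in capitals, so the probes are not independent of each other.
NDUFA6-AS1 brighter probe: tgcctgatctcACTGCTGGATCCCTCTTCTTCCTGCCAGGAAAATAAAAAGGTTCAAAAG
NDUFA6-AS1 other probe: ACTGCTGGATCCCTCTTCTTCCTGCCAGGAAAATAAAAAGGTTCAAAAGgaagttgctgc
By the brighter probe, the level on the control arrays was -1.89 (HK-2 replicate 1), -2.41 (HK-2 replicate 2), -2.69 (RPTEC/TERT1 replicate 1) and -1.92 (RPTEC/TERT1 replicate 2). With IL-1β it was -2.78, -3.15, -3.04 and -2.86 in the same order. The 4 IL-1β arrays all lay below the 4 controls, and the gap was narrow, from -2.78 to -2.69. The fitted difference was -0.73 (standard error 0.16, 0.603-fold, 95% interval 0.470 to 0.774, adjusted p = 0.0205 by limma), and the other probe gave -0.89. NDUFA6 itself, with levels between 3.77 and 4.73, differed by 0.06 (95% interval -0.27 to 0.39). The call was lost in 5 of the 15 limma alternatives with all arrays and in the unpaired t-test that ignores the slides (adjusted p = 0.235). In the limma alternatives the difference was as small as -0.25 in the authors' table (adjusted p = 0.105) and -0.31 after normexp (0.122). It was also lost without the HK-2 replicate 1 control or IL-1β array, the HK-2 replicate 2 control, or the RPTEC/TERT1 replicate 2 control or IL-1β array, with adjusted p from 0.0664 to 0.0859. Without the slide HK-2 replicate 1, HK-2 replicate 2 or RPTEC/TERT1 replicate 2 it was lost with 0.0614, 0.0876 and 0.162.

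The next 2 genes by p with IL-1β did not pass. NDUFAB1, the acyl carrier protein of mitochondria and a subunit of complex I, had within-slide differences of 0.40, 0.50, 0.36 and 0.36 for HK-2 replicates 1 and 2 and RPTEC/TERT1 replicates 1 and 2. Its fitted difference was 0.40 (standard error 0.13, adjusted p = 0.0764), and the 4 slides gave nearly the same size. COX6A2, the heart and muscle form of a complex IV subunit, had control levels of -3.22, -0.13, -0.76 and -3.61 and IL-1β levels of -3.79, -1.26, -1.45 and -3.76 in that order of slides. Its fitted difference was -0.64 (standard error 0.20, adjusted p = 0.0667), and the 2 slides where it was bright were HK-2 replicate 2 and RPTEC/TERT1 replicate 1. NDUFV2 and NDUFB8, both subunits of complex I, were, beside COX8C, the subunits with a difference above 0.5, at 0.54 (adjusted p = 0.138) and 0.51 (0.112). The within-slide differences of NDUFV2 were 0.99, 0.21, 0.13 and 0.86 for HK-2 replicates 1 and 2 and RPTEC/TERT1 replicates 1 and 2, so the slides resembling each other gave like values.

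**Figure D3:**
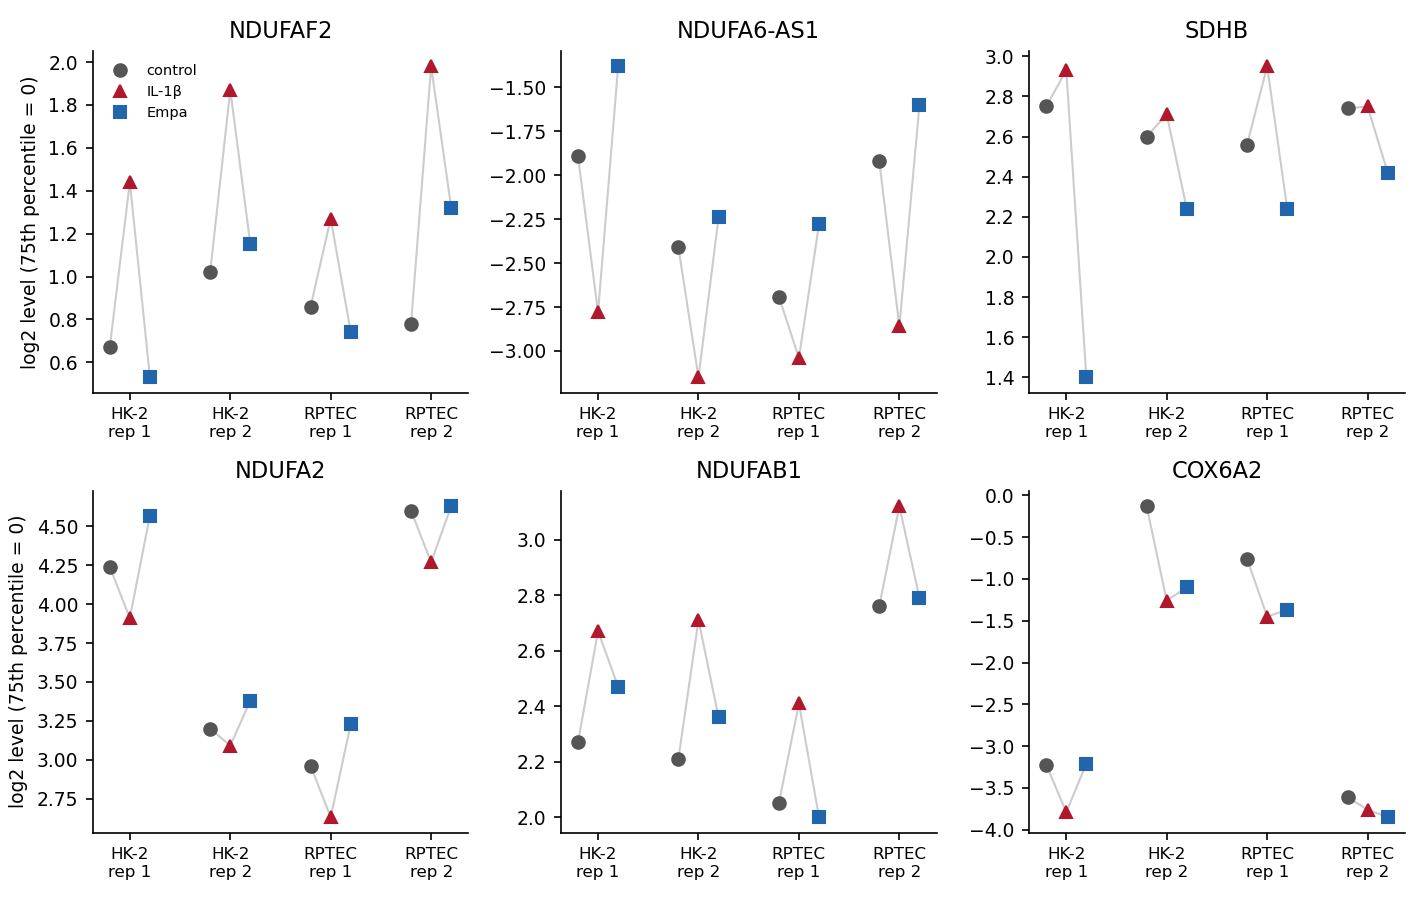
Log2 levels of 6 genes on the 12 arrays, by slide, with control as circles, IL-1β as triangles and Empa as squares; each panel has its own y axis and thin lines join the arrays of a slide. With IL-1β, NDUFAF2 and NDUFAB1 lie above and NDUFA6-AS1 below the control on all 4 slides, and SDHB with Empa is at 1.40 on HK-2 replicate 1 against 2.24 to 2.42 on the other slides.

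The comparison of Empa with control asked the same of SGLT2 inhibition without IL-1β. None of the 83 genes passed in limma, and over all genes 1 did (0.00636%). At an unadjusted p under 0.05 there were 11 of the 83, all subunits, against 12% of all genes. Among them were ATP5B, CYC1, NDUFA13, UQCRC1 and SDHB, which were low on the Empa array of HK-2 replicate 1. This count is not given without that array. The median difference was -0.02, the same as over all genes, and the median absolute difference was 0.15 against 0.24. The interval lay within 2-fold in 73 of the 83 genes, against 73.5% of all genes. On all 4 slides, 4 genes were higher and 17 lower, against 12.5% and 13.9% of all genes (together 21, against 26.4%). No gene of the 83 was called in any alternative tried.

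The 4 genes with the smallest p with Empa were subunits, and their within-slide differences were negative on all 4 slides. ATP5D, the δ subunit of complex V, differed by -0.70, -0.76, -0.35 and -0.35 for HK-2 replicates 1 and 2 and RPTEC/TERT1 replicates 1 and 2, with a fitted difference of -0.54 (standard error 0.16, adjusted p = 0.289). NDUFB7 and NDUFS8, subunits of complex I, had fitted differences of -0.50 (adjusted p = 0.305) and -0.45 (0.338). SDHB had -0.58 (standard error 0.22, adjusted p = 0.360), with -1.35 for HK-2 replicate 1 and from -0.36 to -0.31 for the other 3 slides. Without that Empa array SDHB differed by -0.33 (adjusted p = 0.411). The probes of ATP5D, NDUFB7 and NDUFS8 are rich in GC (55.0%, 66.7% and 53.3%). Over the 83 genes the Empa difference correlated with probe GC content at r = -0.23 and -0.60 on HK-2 replicates 1 and 2. On RPTEC/TERT1 replicates 1 and 2 it was -0.11 and -0.43. Over all genes these 4 correlations were -0.16, -0.36, -0.04 and -0.10. With the within-slide differences centred by probe GC content the fitted differences were -0.37 (ATP5D), -0.34 (NDUFB7) and -0.27 (NDUFS8). The part of GC content in these differences was not tested.

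The Empa array of HK-2 replicate 1 stood apart. On it, 11 of the 83 genes lay more than 1 below control, while the median of the 83 was 0.25 above (0.11 over all genes). Over all genes a like share, 12.2%, lay more than 1 below control there. On the other 3 slides none of the 83 did, against 1.9% to 3.1% of all genes. Among the 11 were ATP5B (-2.54), the catalytic β subunit of complex V, and NDUFA9 (-2.53), a subunit of complex I. On the other slides these 2 genes lay between -0.51 and -0.13. COX7A2L (-1.67), COX4I1 (-1.60), NDUFA13 (-1.36), SDHB (-1.35), ATP5G1 (-1.28), UQCRC1 (-1.27), ATP5C1 (-1.01) and CYC1 were also among them, so each of complexes I to V had a gene among them. The standard deviation over the 83 genes was 0.77 on this array and 0.31 to 0.55 on the other Empa arrays. Over all genes it was 0.85 on this array and 0.51 to 0.57 on the others. The 0.55, on RPTEC/TERT1 replicate 1, includes COX8C, which differed by 4.63 from a control at the floor. A gap test over the 4 slides set 1 slide apart in 11 of the 83 genes with Empa (7.32% of all genes), 10 of them by this slide, and in 5 with IL-1β (3.96%).

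**Figure D4:**
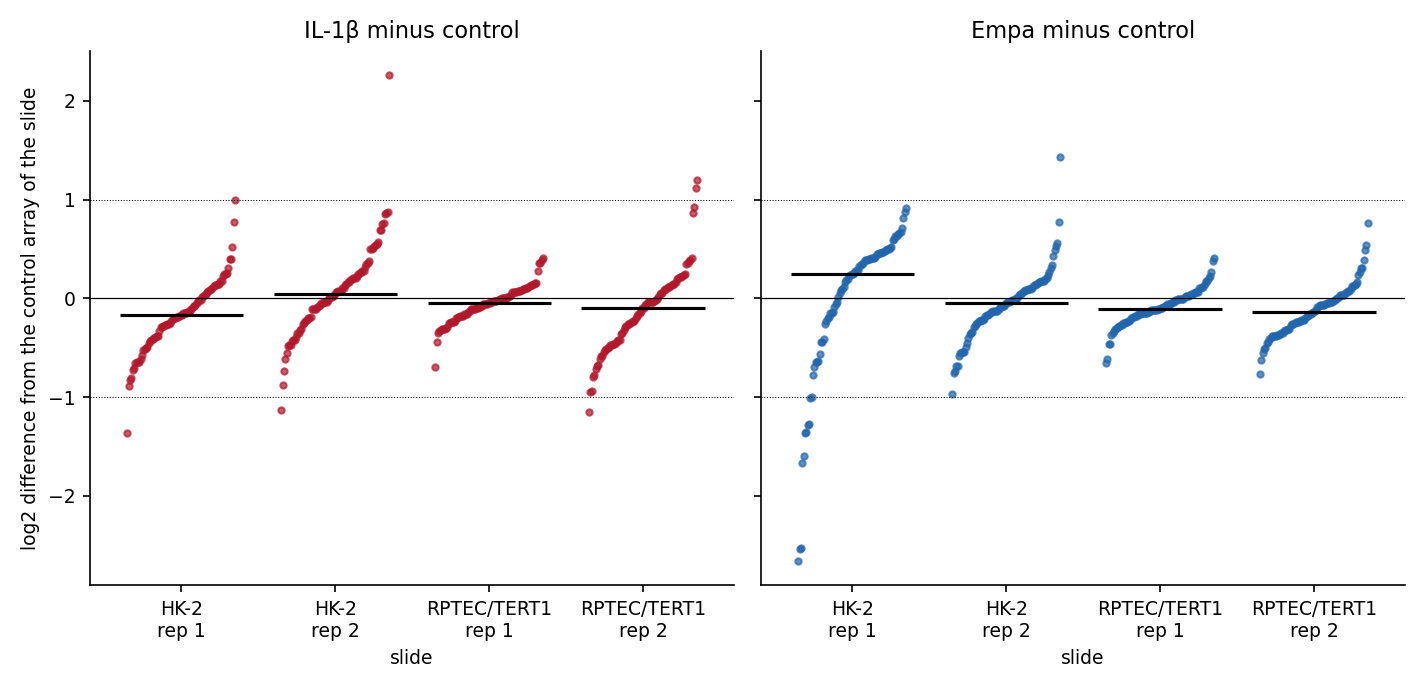
Log2 differences of 82 tested genes (all but COX8C) from the control array of their slide, with IL-1β on the left and Empa on the right; each point is 1 gene, ordered from lowest to highest within a slide, and black bars are medians. With Empa on HK-2 replicate 1 a tail of 11 genes lies more than 1 below control under a median above 0, and no such tail is seen on the other slides.

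On that array, 10 of the genes had probes at least 500 bases apart, and in 8 of them the probe nearest the 5′ end was lower than the one nearest the 3′ end (median -0.62). COX6B2 (0.47 against -0.06) and UQCR10 (-0.10 against -1.18) went the other way. SDHA has 4 probes well above background on all arrays, and the 3 nearer the 5′ end differed by -1.35, -1.79 and -1.64, while the one nearest the 3′ end, the brightest, differed by 0.16. SDHC, another membrane anchor of complex II, gave -2.15 for the probe nearest the 5′ end and 0.34 and 0.49 for the following ones. NDUFA10, a subunit of complex I, gave -1.20, 0.31 and 0.81 in order from the 5′ end. Over 1952 genes with probes at least 500 bases apart, the 5′ probe minus the 3′ probe had a median of -0.37 on this array and lay below -1 in 24.3% of genes. On the other 7 treated arrays that median lay between -0.16 and 0.16 and the share below -1 between 0.717% and 6.05%. There the 5′ probe was lower in 1 to 7 of the 10 genes. The count was 7 with Empa on RPTEC/TERT1 replicate 2 (median -0.36) and with IL-1β on HK-2 replicate 2 (median -0.09). So the 10 genes alone set the Empa array of HK-2 replicate 1 less clearly apart than all 1952 did. The part of the 5′ pattern of that array in the low values of single-probe genes was not tested.

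**Figure D5:**
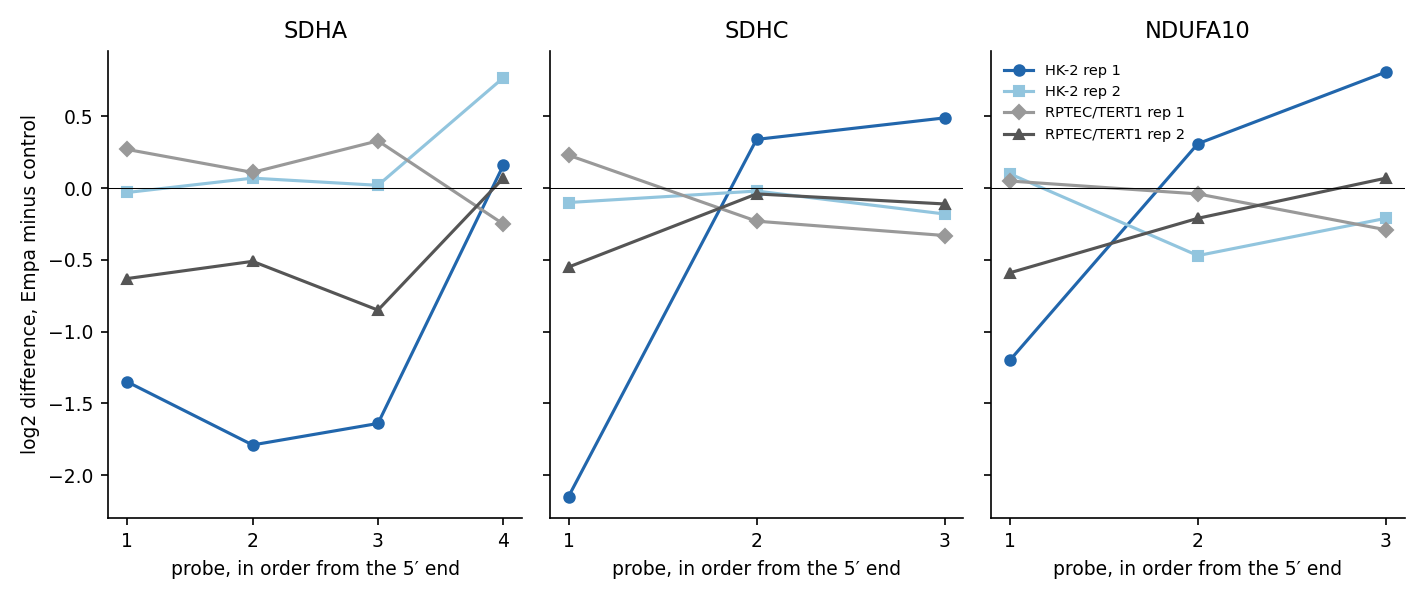
Log2 difference between Empa and control for each probe of SDHA, SDHC and NDUFA10, with probes in order from the 5′ end of the gene and 1 line per slide. On HK-2 replicate 1 the probe nearest the 5′ end lies between -2.15 and -1.20 and the one nearest the 3′ end between 0.16 and 0.81; on the other slides all values lie between -0.85 and 0.77.

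The difference between IL-1β and Empa was taken within slides, with an error estimated from all 12 arrays, controls included. It called 4 of the 83 genes, against 14.5% of all genes. With IL-1β 2 were higher and 2 lower, against 5.19% and 9.31%. At an unadjusted p under 0.05 there were 11, against 31.7%, and the interval lay within 2-fold in 68, against 60.5%. NDUFA6-AS1 was lower by -1.08 (0.473-fold, adjusted p = 0.00402), and on each slide it lay below control with IL-1β and above control with Empa. That call held without any single array and was lost without the whole slide RPTEC/TERT1 replicate 2 (adjusted p = 0.0537). NDUFAF2 was higher by 0.70 (1.62-fold, adjusted p = 0.0250), a call lost without any 1 of the 4 Empa arrays or the IL-1β arrays of HK-2 replicate 1 and RPTEC/TERT1 replicate 2. SDHB was higher by 0.75 (adjusted p = 0.0473), and by 0.50 without the Empa array of HK-2 replicate 1 (0.0462). Leaving out any 1 of the other 11 arrays took SDHB past the threshold, with adjusted p from 0.0561 to 0.158. NDUFA2, a complex I subunit, was lower by -0.48 (adjusted p = 0.0492), with control levels of 4.24, 3.20, 2.96 and 4.6, IL-1β levels of 3.91, 3.09, 2.63 and 4.27 and Empa levels of 4.57, 3.38, 3.23 and 4.63 for HK-2 replicates 1 and 2 and RPTEC/TERT1 replicates 1 and 2. The order IL-1β below control below Empa stood on all 4 slides, and the call was lost without any single array. The authors' table gave 13 calls in this comparison (against 14.8% of all genes), 12 of them lower with IL-1β.

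No difference between the arrays labelled HK-2 and RPTEC/TERT1 was detected. The effect of IL-1β differed between the labels in 0 of the 83 genes, that of Empa in 0, and the control levels in 0 (limma), as over all genes. At an unadjusted p under 0.05 the counts were also 0 for the 83 genes, against 1.73%, 0.980% and 1.09% of all genes. The median standard error of these contrasts was 0.40, 0.40 and 0.57, against 0.17 for a treatment effect, and the 95% intervals lay within 2-fold in 31, 16 and 11 of the 83 genes, against 11.4%, 10.3% and 8.71% of all genes. For most genes the interval thus did not exclude a 2-fold difference between the labels. Each label also joins 1 slide from each resembling pair. The median absolute difference of the control arrays was 0.67 (HK-2) and 0.86 (RPTEC/TERT1) within a label, against 0.18 and 0.24 for the resembling slides of different labels. Differences that follow these pairs fall within the labels, so the contrasts by label cannot show whether the 2 lines differ.

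Several subunits of complexes I and IV have forms made in certain tissues or conditions. COX4I2, a form of subunit 4 known from lung and low oxygen, COX7A1, known from muscle, and COX7B2 were well above background on 0 of 12 arrays. Their usual counterparts were bright, with levels from 3.63 to 5.35 for COX4I1, 5.29 to 6.37 for COX7A2 and 3.94 to 4.90 for COX7B. NDUFA4L2, a hypoxia-inducible relative of NDUFA4, was well above background on 4 arrays. It lay at -4.01 (control), -4.53 (IL-1β) and -4.33 (Empa) on RPTEC/TERT1 replicate 1 and at -4.79, -6.03 and -4.85 on HK-2 replicate 2, and at the floor of -8.71 on the 6 arrays of the other slides. COX6A2 was likewise brighter on these 2 slides, so both followed the pairs of slides in the same direction. COX6B2, known from testis, was well above background on all 12 arrays with levels from 1.75 to 3.50 by its brighter probe. Its other probe, also well above background on 12 arrays, had a mean level of -2.84, against 2.58 for the brighter one. The level of COX6B2 therefore depends on the probe. COX8C, also known from testis, was well above background on 5 arrays and lay between the floor and -2.49. COX8A, its usual counterpart, had levels from 4.52 to 6.87.

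Genes around the system were counted from lists written down for this work. Of 12 genes encoded in mitochondrial DNA, 11 were tested, and 10 of them had a negative difference with IL-1β (9476 of 15717 over all genes), with a median of -0.40 and a range from -0.48 (COX2) to 0.29 (ND6). None passed, and 5 were lower and 1 higher on all 4 slides. The probe named COX1 is placed by the annotation on chromosome 1, at a nuclear copy of the mitochondrial gene. With Empa their median was -0.18. Among 17 regulators of mitochondrial biogenesis, PPARGC1A, a coactivator that drives these genes, fell with IL-1β by 1.56 (adjusted p = 0.00175) and MYC rose by 0.93 (0.0278). Among 24 carriers and coupling genes, CYCS, which encodes cytochrome c, rose by 0.79 (0.0141) and PRODH, the first enzyme of proline breakdown, fell by 1.10 (0.0258). AOX1 was also called higher (adjusted p = 0.0296) but was well above background on 4 arrays. The tricarboxylic acid cycle had 1 call in 14 genes, IDH2, which fell by 1.57 (0.00501), and 39 further assembly factors had 1, ATPAF2, which fell by 0.59 (0.0382). Of 73 genes of the mitochondrial ribosome, MRPL14 was called, higher. The glycolytic genes had a median of 0.50 over 15, with hexokinase 2 (HK2, 1.31, adjusted p = 0.00562) and PGK1 (1.32, 0.00939) called higher. Of these 15 differences 12 were positive (6241 of 15717 over all genes), and 7 genes were higher on all 4 slides (15% of all genes). Over all genes 4.52% were called higher and 7.91% lower with IL-1β. None of these lists had a call with Empa.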

How the data were processed

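Total RNA of 12 samples was hybridised to 1-colour Agilent 4x44K v2 arrays. Per the file headers, Agilent Feature Extraction made the deposited intensity values, of which the background-subtracted processed signal was used. The authors also deposited a table of normalized log2 values, which was used as an alternative. Each array was divided by its 75th percentile, values were raised to a floor of 1 signal unit and log2 was taken. Control spots and spots marked as outliers were left out, repeated spots were averaged per probe, and probes without a value on each of the 12 arrays were dropped. The brightest probe of a gene was kept if it was well above background on both arrays of 1 or more groups, which left 15717 genes.

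Differences were fitted with limma 3.58.1 (R 4.3.3) with the slide as a block and 6 residual degrees of freedom, and p-values were adjusted by Benjamini-Hochberg over all genes. The slide block was used because same-numbered arrays of a label share a slide and their deviations correlated (r = 0.627 to 0.895). Labels give no separate cultures beyond the word duplicate, while the study speaks of independent experiments for its array result. The p-values measure the spread between these samples, and the number of arrays limits the precision. Named were the called genes, the 4 with the smallest p where fewer than 4 were called, the tissue-restricted isoforms beside their usual counterparts, the SDH genes and genes saturated or not above background. Others named were chosen after their values were seen. The genes and lists were chosen with earlier results of these data known. The values of 1 gene are not reported here.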

Additional observations from a re-analysis of the deposited data

Results flagged for a closer look

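For each tested gene and treatment, the 4 within-slide log2 differences were examined for 1 slide lying apart from the others by Dixon's ratio. Chance flags about 1 in 20 such groups. With IL-1β 5 genes had such a slide, against 3.96% of all genes. Among them, ATP5B (0.10), ATP5D (0.03) and NDUFS7 (-0.08) stood apart on RPTEC/TERT1 replicate 1 and NDUFA2 (-0.11) on HK-2 replicate 2.

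With Empa 11 genes had such a slide, against 7.32% of all genes, and for 10 of them it was HK-2 replicate 1, the slide of the Empa array described above. On it ATP5B (-2.54), NDUFA9 (-2.53), COX7A2L (-1.67), SDHB (-1.35) and NDUFS3 (-0.26) were low, and UQCRH (0.63), COX7A2 (0.51), UQCRFS1 (0.46), NDUFB1 (0.41) and NDUFAF1 (0.36) were high. NDUFB2-AS1 stood apart on HK-2 replicate 2 (-0.49).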

How the results depend on the processing

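Without the replicate block, which ignores the pairing of arrays by slide, IL-1β against control called 0 of the 83 genes in place of 2, and IL-1β against Empa 0 in place of 4, but over all genes these fits called 0.0509% and 0.0954%. For IL-1β against control the count was 8 with normexp and quantile normalization, 10 with the authors' table, 5 without the filter on dim probes and 4 with the median difference of all genes set to 0. For IL-1β against Empa it was 9, 13, 7 (genes well above background on all 12 arrays), 7 (centring by GC content) and 7 (trend and robust prior) respectively for normexp, the authors' table and the settings named. The slides of either scan day alone, or of either label alone, gave 0 calls in both comparisons (0 to 86 over all genes). The unpaired t-test that ignores the slides also gave 0 for IL-1β against control after Benjamini-Hochberg (46 over all genes). Before adjustment it had 5 of the 83 genes (2015 over all genes). Leaving out an array or slide gave 0 to 8 calls for IL-1β against control and 0 to 6 for IL-1β against Empa.

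The median difference with IL-1β was -0.08, and -0.21 in the authors' table. It was 0.02 with the median difference of all genes, -0.11, set to 0. Centring by probe GC content gave 0.01, and centring by signal level gave 0. Quantile normalization, with or without normexp, gave -0.13. The IL-1β median lay between -0.13 and -0.02 when an array or slide was left out. The median with Empa, -0.02, lay between -0.12 and 0.06 in the latter settings. The cause of these shifts was not tested. The counts of calls for Empa, for the labels' interactions and for the control levels stayed at 0 in all alternatives. Taking the probe nearest the 3′ end, chosen after seeing the data, gave 2 and 3 calls. Signal over background limited COX8C, NDUFA4L2 and the other dim forms.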
